A study of Mus musculus with 17 samples.

Results

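The 7 mouse genes of the platelet-derived growth factor (PDGF) family that encode receptors, receptor-like proteins or ligands were followed in C2C12 cells, a mouse myoblast line. They were the rows of the deposited count table with the symbols Pdgfra, Pdgfrb, Pdgfrl, Pdgfa, Pdgfb, Pdgfc and Pdgfd, and 7 of the 7 were among the 15062 genes of the table. The control line carried pMSCV, a retroviral vector. A second line expressed SRF, the transcription factor serum response factor, and 4 lines expressed fusions of SRF to another gene, named SRF-RELA, SRF-PDGFRB, SRF-ICA1L and SRF-FOXO1. All lines grew in medium with 10% fetal bovine serum. SRF-PDGFRB had 2 libraries and the other 5 groups had 3 each, 17 in all. The labels do not say whether the libraries of a line came from separate cultures, or whether a line was a clone or a pool, so p-values measure only the spread between these libraries. One fusion partner, PDGFRB, is a member of this family, and whether its construct added reads to the Pdgfrb count is not given in the sources used here.

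PDGF ligands are secreted dimers that bind 2 receptor tyrosine kinases on the cell surface, PDGFRα and PDGFRβ, encoded by Pdgfra and Pdgfrb. The A and B chains are cut to their active form inside the cell by furin-type proteases, whereas the C and D chains are secreted with an inhibitory CUB domain that is removed outside the cell. PDGFRα binds the A, B and C chains and PDGFRβ the B and D chains, and both signal through RAS and ERK, PI3 kinase, PLCγ and SRC family kinases. In skeletal muscle PDGFRα is the usual surface marker of fibro-adipogenic progenitors and PDGFRβ of pericytes. Pdgfrl encodes a secreted receptor-like protein without a kinase domain.

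The promoter windows of 3 members are shown because Pdgfc and Pdgfd were the ligands called in the fits that pair by number all 12 libraries of pMSCV, SRF, SRF-RELA and SRF-ICA1L or all libraries of SRF and SRF-FOXO1, and Pdgfra is shown as a receptor gene for comparison. RefSeq sequence of build GRCm38.p6 gave windows for 4 of the 7 members (Pdgfra, Pdgfa, Pdgfc and Pdgfd). Each sequence is the 250 bases before the RefSeq transcription start, 5′ to 3′. Capitals mark a match to the CArG box, the sequence that SRF binds, searched for on both strands; the Pdgfc match has 0 mismatches and the Pdgfd match has 1. The windows are chr3:81036166-81036415 for Pdgfc, chr9:6168236-6168485 for Pdgfd and chr5:75152001-75152250 for Pdgfra, all on the plus strand.
Pdgfc: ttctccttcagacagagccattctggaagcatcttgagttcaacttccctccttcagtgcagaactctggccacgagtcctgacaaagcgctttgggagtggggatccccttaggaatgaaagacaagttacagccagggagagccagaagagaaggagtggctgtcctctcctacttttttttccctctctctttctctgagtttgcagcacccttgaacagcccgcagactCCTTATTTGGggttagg
Pdgfd: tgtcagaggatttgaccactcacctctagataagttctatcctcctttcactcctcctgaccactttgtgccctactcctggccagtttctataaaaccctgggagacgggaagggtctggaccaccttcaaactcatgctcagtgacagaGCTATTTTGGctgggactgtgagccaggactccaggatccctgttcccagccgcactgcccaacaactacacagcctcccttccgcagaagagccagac
Pdgfra: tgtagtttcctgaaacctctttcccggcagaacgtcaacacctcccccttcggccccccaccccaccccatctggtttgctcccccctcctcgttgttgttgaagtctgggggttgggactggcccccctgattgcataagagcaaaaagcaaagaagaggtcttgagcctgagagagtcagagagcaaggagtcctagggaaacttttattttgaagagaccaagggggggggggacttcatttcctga
The Pdgfc match lay 17 to 8 bases before the start (chr3:81036399-81036408). Of 32851 RefSeq windows of 300 bases (250 before and 50 after a start), 535, or 1.63%, held a CArG box. The Pdgfd match lay 99 to 90 bases before the start (chr9:6168387-6168396), and 21.1% of windows held a match with at most 1 mismatch. The windows of Pdgfra and Pdgfa held neither. These matches describe the letters of the windows and were not measured as binding sites.

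Library totals ran from 20901442 to 23543734 counts, and every member stood above the floor of 3 counts in every library except Pdgfb in SRF-PDGFRB library 1, with 2 counts. Levels are in CPM, the counts of a gene scaled to a common library size by TMM. The introduced gene was seen in the SRF line, where Srf lay at 678 to 1673 CPM against 66.6 to 93.8 CPM in pMSCV. In SRF-FOXO1 it lay at 71.8 to 105 CPM and in SRF-PDGFRB at 70.5 and 81.4 CPM, so Srf did not separate these lines from the control. In SRF-ICA1L Srf lay at 121 to 279 CPM, above all pMSCV libraries, and in SRF-RELA at 85.0 to 155 CPM, which overlapped them. The sum of 7 of 7 myoblast markers, which include Myod1 and Des, was 972 to 1399 CPM in pMSCV, 551 to 1105 CPM in SRF, 183 to 232 CPM in SRF-FOXO1, 268 to 590 CPM in SRF-RELA and 341 to 884 CPM in SRF-ICA1L. The 2 SRF-PDGFRB libraries stood at the opposite ends of this scale, library 1 at 84.3 CPM and library 2 at 1651 CPM, and each result on that line is given with this in view. For 7 of 9 fibroblast and fibro-adipogenic markers the sum was 227 to 1075 CPM in pMSCV, 299 to 376 CPM in SRF, 429 to 2400 CPM in SRF-FOXO1, 385 to 589 CPM in SRF-ICA1L, 501 to 739 CPM in SRF-RELA and 333 to 484 CPM in SRF-PDGFRB. Dpt and Lum were at 0 counts in at least 1 library, and Dpp4 and Col15a1 were not found in the count table. In SRF-FOXO1 library 3 Dcn reached 1622 CPM and Lum 62.4 CPM. The summed pericyte markers (4 of 8 measured) lay at 78.9 to 265 CPM, those of smooth muscle (6 of 6) at 275 to 4037 CPM, those of endothelium (2 of 5) at 2.81 CPM or less and those of macrophages (2 of 5) at 2.40 to 11.3 CPM over all libraries. In bulk libraries fewer cells of a type and less RNA per cell cannot be told apart.

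Pdgfrb was the member with the highest mRNA level per kilobase of exon in each of the 6 lines, and Pdgfb had the lowest level in 5 of them. In pMSCV the mean level per kilobase was 36.9 CPM for Pdgfrb, 14.0 for Pdgfa, 7.67 for Pdgfc, 5.46 for Pdgfd, 4.07 for Pdgfrl, 2.68 for Pdgfra and 1.25 for Pdgfb. The myoblast line thus held transcripts of both kinase receptors and of all 4 ligand chains, with more Pdgfrb than Pdgfra mRNA per kilobase. In SRF-FOXO1 the order was different: Pdgfrb stood at 84.4 CPM per kilobase, followed by Pdgfa at 9.99, Pdgfrl at 9.27, Pdgfra at 7.27, Pdgfc at 2.78, Pdgfd at 0.610 and Pdgfb at 0.255. The places of Pdgfrl, Pdgfd and the members next to them depend on the length used. With the longest coding transcript in place of all exons, Pdgfrl passed Pdgfd in pMSCV (8.20 against 5.50 CPM per kilobase) and Pdgfa in SRF-FOXO1 (18.7 against 15.1 CPM per kilobase).

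**Figure D1:**
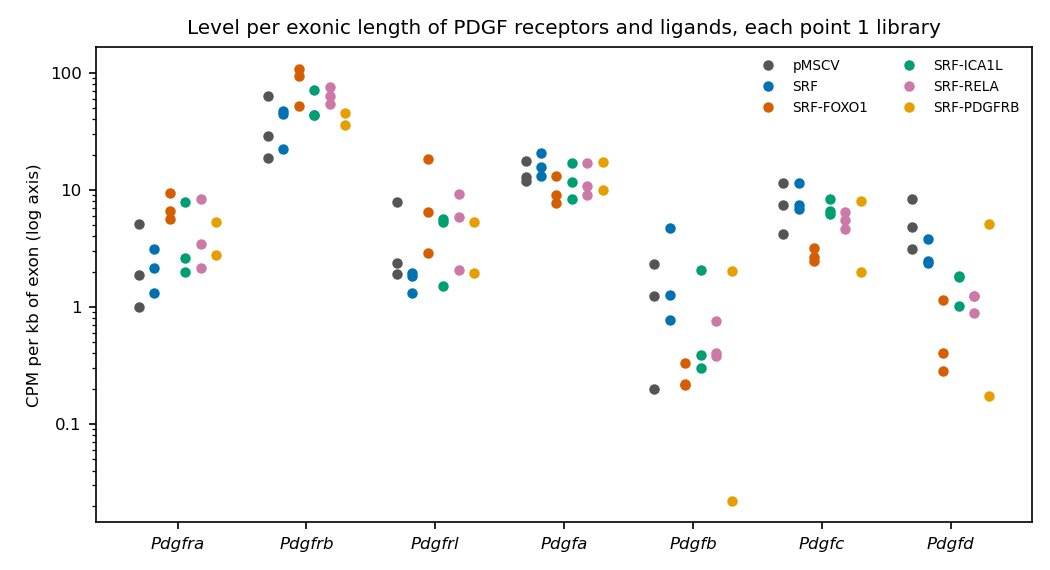
Level of each PDGF gene in CPM per kilobase of exon (log axis), 1 point per library, coloured by line. Pdgfrb lies at the top in every line, and the SRF-FOXO1 points of Pdgfc, Pdgfd and Pdgfb lie low within their genes.

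Pdgfrb (ENSMUSG00000024620, chr18:61045150-61085061 on the plus strand of GRCm38) encodes PDGFRβ. It stood at 159, 345 and 103 CPM in pMSCV libraries 1, 2 and 3, at 259, 245 and 121 CPM in SRF, and at 594, 284 and 509.5 CPM in SRF-FOXO1. In SRF-ICA1L it was at 239, 388 and 238 CPM, in SRF-RELA at 349, 412 and 298 CPM and in SRF-PDGFRB at 247 and 196 CPM. The SRF-FOXO1 and SRF-RELA libraries all lay above the highest SRF library, while pMSCV library 2 lay above the lowest library of each fusion line. The order of the group means was SRF-FOXO1 (463 ± 160.2 CPM, SD, n = 3), SRF-RELA (353 ± 56.8), SRF-ICA1L (288 ± 86.1), SRF-PDGFRB (222 ± 36.0, n = 2), SRF (209 ± 75.8) and pMSCV (202 ± 127), and the libraries of each pair of neighbours overlapped. The line that carries the PDGFRB fusion was therefore not the line with most Pdgfrb counts.

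Pdgfra (ENSMUSG00000029231, chr5:75152292-75198215, plus strand) encodes PDGFRα. Its levels in libraries 1, 2 and 3 were 18.8, 51.7 and 10.1 CPM in pMSCV, 21.4, 31.5 and 13.1 CPM in SRF, and 66.5, 57.0 and 95.0 CPM in SRF-FOXO1. SRF-ICA1L had 20.0, 79.4 and 26.1 CPM, SRF-RELA had 21.7, 83.9 and 34.7 CPM, and SRF-PDGFRB had 52.9 and 27.8 CPM. Each SRF-FOXO1 library was above every pMSCV and SRF library, whereas in SRF-ICA1L and SRF-RELA library 2 stood well above the others. Of all genes, 11.4% were higher in SRF-FOXO1 without overlap against pMSCV and 17.1% against SRF, and the share for both at once was not counted. The means ran from 72.8 ± 19.8 CPM in SRF-FOXO1 through SRF-RELA, SRF-ICA1L, SRF-PDGFRB and pMSCV (26.9 ± 21.9) to 22.0 ± 9.23 CPM in SRF (SD, n = 3), again with overlap between neighbours.

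Pdgfrl (ENSMUSG00000031595, chr8:40926212-40990785, plus strand), the receptor-like gene, was at 7.38, 24.8 and 5.94 CPM in pMSCV, at 4.09, 5.71 and 6.10 CPM in SRF and at 20.1, 9.10 and 57.8 CPM in SRF-FOXO1. It was at 4.67, 17.5 and 16.6 CPM in SRF-ICA1L, at 6.41, 28.7 and 18.4 CPM in SRF-RELA and at 6.06 and 16.6 CPM in SRF-PDGFRB. SRF had the lowest mean (5.30 ± 1.07 CPM, SD, n = 3) and the narrowest range, and every SRF-FOXO1 and SRF-RELA library lay above it. Neighbours in the order SRF-FOXO1, SRF-RELA, SRF-ICA1L, pMSCV, SRF-PDGFRB and SRF overlapped.

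**Figure D2:**
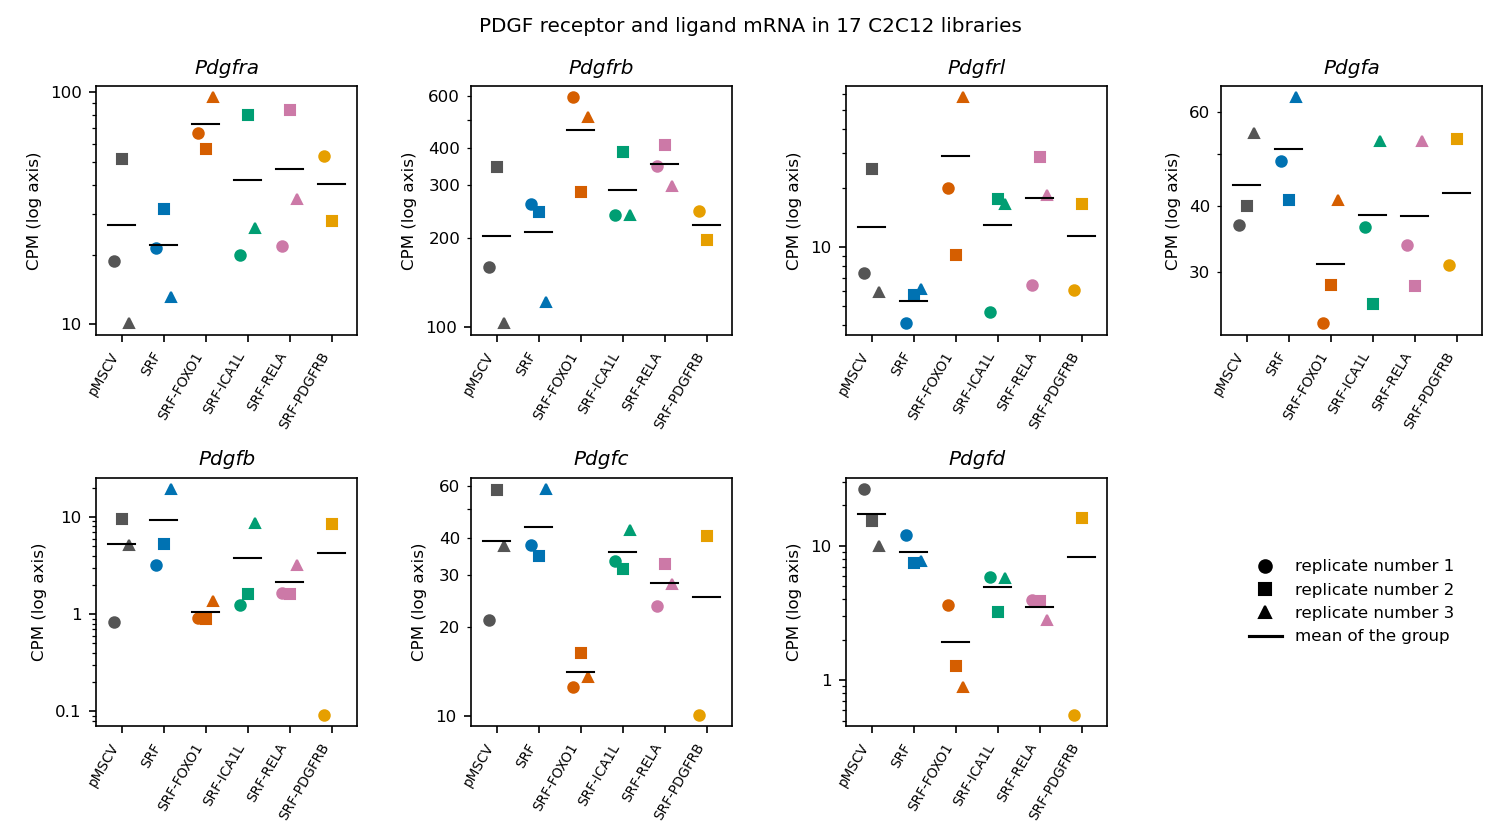
CPM of each PDGF gene (log axis) in the 6 lines, with 1 symbol per library by replicate number and a bar at the group mean. SRF-FOXO1 is high for the receptors and low for the ligands, and the 2 SRF-PDGFRB libraries lie far apart for Pdgfb, Pdgfc and Pdgfd.

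Pdgfa (ENSMUSG00000025856, chr5:138976014-138997370, minus strand) encodes the A chain, a ligand of PDGFRα. It varied least of the 7 members, 2.65-fold between its lowest library (24.1 CPM) and its highest (63.8 CPM). It stood at 36.8, 39.9 and 54.7 CPM in pMSCV, at 48.6, 41.1 and 63.8 CPM in SRF, and at 24.1, 28.4 and 41.0 CPM in SRF-FOXO1, whose highest library lay just below the lowest SRF library. SRF-ICA1L had 36.4, 26.2 and 52.8 CPM, SRF-RELA 33.8, 28.3 and 52.8 CPM, and SRF-PDGFRB 31.0 and 53.4 CPM. Neighbours overlapped in the order SRF, pMSCV, SRF-PDGFRB, SRF-ICA1L, SRF-RELA and SRF-FOXO1. An antisense gene, 6330403L08Rik, overlaps Pdgfa and had 124 to 260 counts in a library, and whether counting used the strand is not given in the sources used here.

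Pdgfb (ENSMUSG00000000489, chr15:79995874-80014977, minus strand) encodes the B chain, which binds both receptors, and had the lowest mean CPM of the members in every line but SRF. It was at 0.830, 9.61 and 5.19 CPM in pMSCV, at 3.23, 5.26 and 19.5 CPM in SRF, and at 0.915, 0.891 and 1.38 CPM in SRF-FOXO1. SRF-RELA had 1.66, 1.60 and 3.17 CPM, and SRF-ICA1L had 1.25, 1.61 and 8.61 CPM. The SRF-PDGFRB libraries held 2 and 189 counts. The pMSCV and SRF libraries covered a wide range, and the 3 SRF-FOXO1 libraries lay below every SRF and SRF-RELA library. In the order SRF, pMSCV, SRF-PDGFRB, SRF-ICA1L, SRF-RELA and SRF-FOXO1, only the last pair of neighbours did not overlap.

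Pdgfc (ENSMUSG00000028019, chr3:81036416-81214040, plus strand) encodes the C chain, a latent ligand of PDGFRα. It stood at 21.2, 58.2 and 37.7 CPM in pMSCV, at 37.8, 34.7 and 58.6 CPM in SRF, and at 12.6, 16.3 and 13.6 CPM in SRF-FOXO1. It was at 33.3, 31.5 and 42.5 CPM in SRF-ICA1L, at 23.6, 32.7 and 28.1 CPM in SRF-RELA, and at 10.1 and 40.5 CPM in SRF-PDGFRB. SRF-FOXO1 had the lowest mean (14.2 ± 1.93 CPM, SD, n = 3) with a narrow range below all pMSCV and SRF libraries. Of all genes, 11.6% were lower in SRF-FOXO1 without overlap against pMSCV and 18.3% against SRF. The neighbours SRF, pMSCV, SRF-ICA1L, SRF-RELA, SRF-PDGFRB and SRF-FOXO1 overlapped.

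Pdgfd (ENSMUSG00000032006, chr9:6168584-6378850, plus strand) encodes the D chain, a latent ligand of PDGFRβ. It was at 26.5, 15.3 and 9.91 CPM in pMSCV and at 11.99, 7.41 and 7.71 CPM in SRF. It was at 5.83, 3.21 and 5.72 CPM in SRF-ICA1L, at 3.92, 3.88 and 2.80 CPM in SRF-RELA and at 3.62, 1.27 and 0.892 CPM in SRF-FOXO1. All libraries of these 3 fusions lay below all pMSCV and SRF libraries. Of all genes, 5.54%, 5.91% and 11.6% lay below pMSCV without overlap in SRF-ICA1L, SRF-RELA and SRF-FOXO1. Against SRF the shares were 3.2%, 5.04% and 18.3%. The share of genes that did so in all these comparisons at once was not counted. SRF-PDGFRB split, with 0.551 CPM in library 1 and 16.0 CPM in library 2. Means were 17.2 ± 8.48 CPM in pMSCV, 9.04 ± 2.57 in SRF, 8.26 ± 10.9 in SRF-PDGFRB (n = 2), 4.92 ± 1.48 in SRF-ICA1L, 3.53 ± 0.635 in SRF-RELA and 1.93 ± 1.48 in SRF-FOXO1 (SD, n = 3), and neighbours overlapped.

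The SRF-FOXO1 line against SRF asked which PDGF genes the FOXO1 fusion changes relative to SRF itself. All 3 receptor genes were at higher levels in every SRF-FOXO1 library than in any SRF library, and all 4 ligands were at lower levels. Over all genes, 17.1% were higher and 18.3% lower without overlap, so a gene without overlap was common here. By edgeR's quasi-likelihood test over all 17 libraries with Benjamini-Hochberg adjustment, none of the 7 members passed an adjusted p of 0.05, where 0.00664% of all genes passed. Unadjusted p was under 0.05 for 7 of 7, against 19.2% of genes, and DESeq2 called 2 (Pdgfrl and Pdgfc), against 4.3% of genes. The log2 fold changes were 1.73 (SE 0.67) for Pdgfra, 1.15 (SE 0.42) for Pdgfrb and 2.45 (SE 0.79) for Pdgfrl. For the ligands they were -0.72 (SE 0.32) for Pdgfa, -3.13 (SE 1.22) for Pdgfb, -1.63 (SE 0.43) for Pdgfc and -2.23 (SE 0.82) for Pdgfd. Adjusted p in edgeR ran from 0.178 for Pdgfc to 0.248 for Pdgfa. The median was 1.73 for the receptors and -1.93 for the ligands, against 0.01 over all genes. Single libraries moved these values. The count of members with an unadjusted p under 0.05 was 3 without SRF library 3 (11.9% of genes), 5 without SRF library 1 (12% of genes) and 4 without any one SRF-FOXO1 library (9.89% to 21.2% of genes). Pdgfrl was at 1.46 without SRF-FOXO1 library 3, Pdgfb at -1.99 without SRF library 3 and Pdgfd at -3.06 without SRF-FOXO1 library 1.

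Deviations of SRF-FOXO1 libraries 1, 2 and 3 from their group mean correlated at 0.220, 0.253 and 0.330 with those of the same-numbered SRF libraries. With SRF-ICA1L they correlated at 0.071, 0.102 and 0.501, and with SRF-RELA at 0.124, -0.013 and 0.454. Library 2 of SRF-FOXO1 stood closer to library 1 of these lines (0.345 and 0.421), so its pairing is weak. The SRF and SRF-FOXO1 libraries were also fitted with the replicate number as a block. In that fit Pdgfc fell by a log2 fold change of 1.58 (SE 0.22, adjusted p = 0.0471) and Pdgfd fell by 2.40 (SE 0.34, adjusted p = 0.0479) by edgeR's quasi-likelihood test, where 1.57% of 13949 genes were called. The other 5 members did not pass, with adjusted p from 0.0512 for Pdgfb to 0.128 for Pdgfrb. Within the 3 numbers Pdgfc was 2.98-, 2.1- and 4.30-fold lower in SRF-FOXO1, and Pdgfd 3.26-, 5.52- and 7.94-fold lower. Both calls were lost without library 1 or library 3 of either line, with adjusted p from 0.0636 to 0.269 for Pdgfc and from 0.0729 to 0.230 for Pdgfd by edgeR, and 0% to 0.357% of genes called. Without library 2 the count of called members was 6 (SRF left out) or 5 (SRF-FOXO1 left out), where 10.3% and 8.36% of genes were called. The sum of the myoblast markers was 183 to 232 CPM in SRF-FOXO1 and 551 to 1105 CPM in SRF. Of the measured fibroblast and fibro-adipogenic markers, 7 of 7 had a higher level in SRF-FOXO1 (median log2 fold change 1.54, unadjusted p under 0.05 for 4), and their sum was 429 to 2400 CPM against 299 to 376 CPM. The part of either marker set in the receptor and ligand differences was not tested.

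Against pMSCV, the same SRF-FOXO1 libraries showed higher kinase receptor and lower C and D chain levels. None of the 7 members passed edgeR's quasi-likelihood test, where 0.71% of genes did; unadjusted p was under 0.05 for 4 members, against 20.9% of genes. DESeq2 called 2, Pdgfc and Pdgfd, against 9.07% of genes. Pdgfd differed most (log2 fold change -3.16, SE 0.85, edgeR adjusted p = 0.0694), followed by Pdgfc (-1.46, SE 0.43, edgeR adjusted p = 0.0866). Pdgfra was higher by 1.44 (SE 0.66, edgeR adjusted p = 0.234) and Pdgfrb by 1.19 (SE 0.42, edgeR adjusted p = 0.133). Pdgfra was above, and Pdgfc and Pdgfd below, all pMSCV libraries, where 11.4% and 11.6% of genes were higher and lower without overlap. The size of both receptor differences depended on pMSCV libraries 2 and 3. Without pMSCV library 2 Pdgfra was higher by 2.33, and Pdgfrb by 1.82 and called (edgeR adjusted p = 0.0441), where 2.36% of genes were called. Without pMSCV library 3 they were higher by 1.05 (adjusted p = 0.476) and 0.88 (adjusted p = 0.311). The count of members with an unadjusted p under 0.05 was then 2, as it was without SRF-FOXO1 library 1, against 16.8% and 16.2% of genes. The control library 2 also had the highest fibroblast marker sum of its line (1075 CPM, against 288 and 227 CPM), whose part in the result was not tested.

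**Figure D3:**
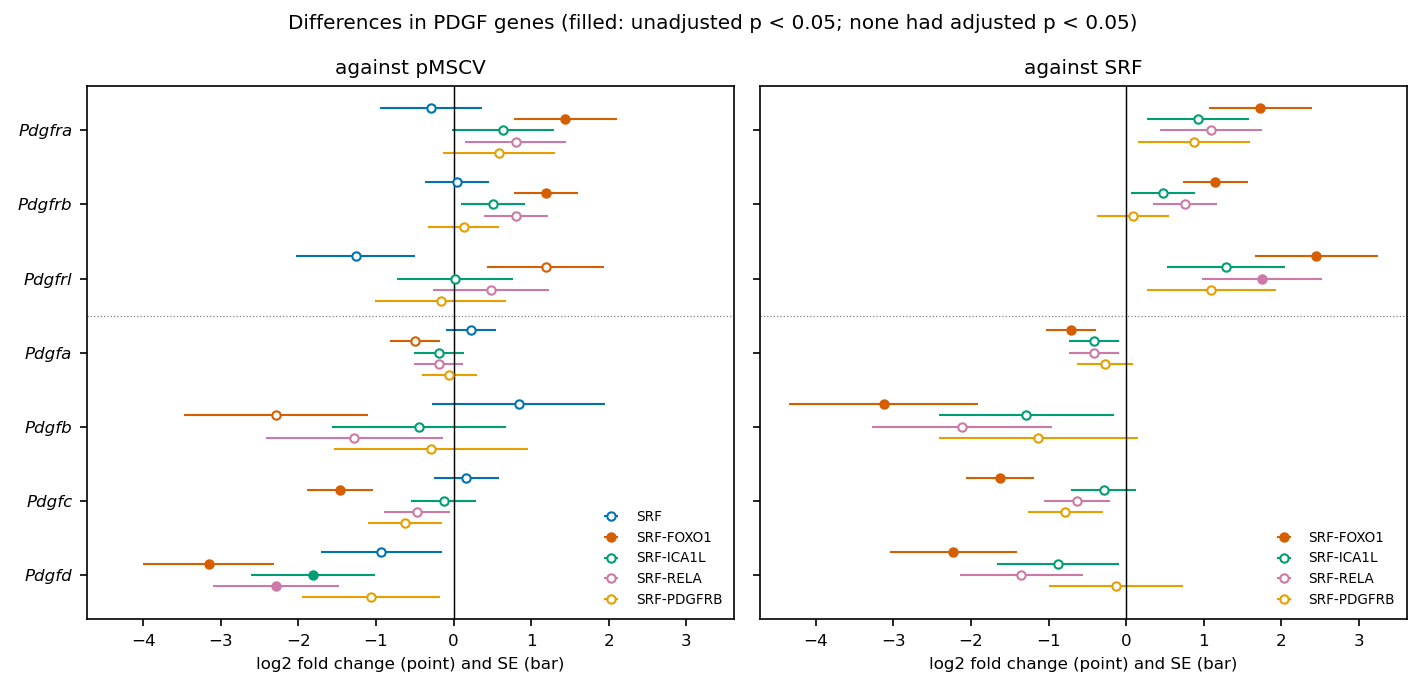
Log2 fold change (point) and SE (bar) of each PDGF gene in each line against pMSCV (left) and against SRF (right), from the edgeR fit over 17 libraries. Filled points had an unadjusted p under 0.05; the 7 SRF-FOXO1 points against SRF are all filled, with receptors to the right of 0 and ligands to the left.

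SRF-ICA1L and SRF-RELA shared a lower Pdgfd level against pMSCV, in 3 of 3 same-numbered pairs each. The fold was 4.50, 4.64 and 1.72 in pairs 1, 2 and 3 for SRF-ICA1L, and 6.64, 3.87 and 3.46 for SRF-RELA. In the fit over all 17 libraries no member was called in either comparison by edgeR's quasi-likelihood test, where 0% of genes were, or by DESeq2, where 0.318% and 0.77% of genes were. Unadjusted p was under 0.05 for 1 member in each, Pdgfd, against 6.23% of genes for SRF-ICA1L and 8.05% for SRF-RELA. The log2 fold change of Pdgfd was -1.81 (SE 0.80, adjusted p = 0.781) in SRF-ICA1L and -2.28 (SE 0.81, adjusted p = 0.512) in SRF-RELA. Same-numbered libraries of pMSCV, SRF, SRF-RELA and SRF-ICA1L deviated together, and with the replicate number as a block over these 12 libraries both were called. Pdgfd fell by 1.73 (SE 0.28, adjusted p = 0.0133) in SRF-ICA1L, where 2.99% of 14639 genes were called, and by 2.19 (SE 0.28, adjusted p = 0.00340) in SRF-RELA, where 6.48% were. Pdgfd was also the member that lay below all pMSCV libraries in both lines, as did 5.54% of genes in SRF-ICA1L and 5.91% in SRF-RELA. The 2 comparisons share their pMSCV libraries.

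The SRF-ICA1L call did not hold without each library. It was lost without pMSCV library 1 (adjusted p = 0.0705 in the edgeR fit with the block), SRF-ICA1L library 1 (0.0812) or SRF-ICA1L library 2 (0.0851). In these fits 0.43%, 0.382% and 0.162% of all genes were called. The SRF-RELA call held in all 12 such fits, where 1.59% to 8.26% of genes were called. Pdgfrb was higher in 3 of 3 pairs in both lines. In SRF-RELA it was higher by 0.96 (SE 0.25) with the block and narrowly missed the threshold (edgeR adjusted p = 0.0505). It was called there without pMSCV library 2 (1.30, adjusted p = 0.00875) or SRF library 1 (0.97, adjusted p = 0.0321), with 8.08% and 5.27% of genes. In SRF-ICA1L Pdgfrb was called without pMSCV library 2 (0.98, adjusted p = 0.0391), with 3.66% of genes. Of the 7 myoblast markers, 6 were lower in SRF-ICA1L, 4 of them called, and 7 were lower in SRF-RELA, 5 of them called, in the same fit. Of the 6 smooth muscle markers 5 were tested there and 5 were at higher levels in each line (median log2 fold change 2.50 and 2.11). Tagln rose in both lines but was scarce, at 0.231 to 3.90 CPM over all libraries. Lmod1, at 0.231 to 57.4 CPM, rose in SRF-RELA. Cd34, a fibro-adipogenic marker, and Lyz2, a scarce macrophage marker (0.0872 to 8.50 CPM over all libraries), also rose in SRF-RELA. Most other markers of these lists went the other way there. Of 7 fibroblast and fibro-adipogenic markers 2 were higher and 5 lower (median log2 fold change -0.75). Of 2 macrophage markers 1 was higher and 1 lower. Smooth muscle sums were 275 to 2535 CPM in pMSCV, 2047 to 2693 CPM in SRF-ICA1L and 2001 to 3521 CPM in SRF-RELA. The part of these markers in the Pdgfd and Pdgfrb values was not tested.

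**Figure D4:**
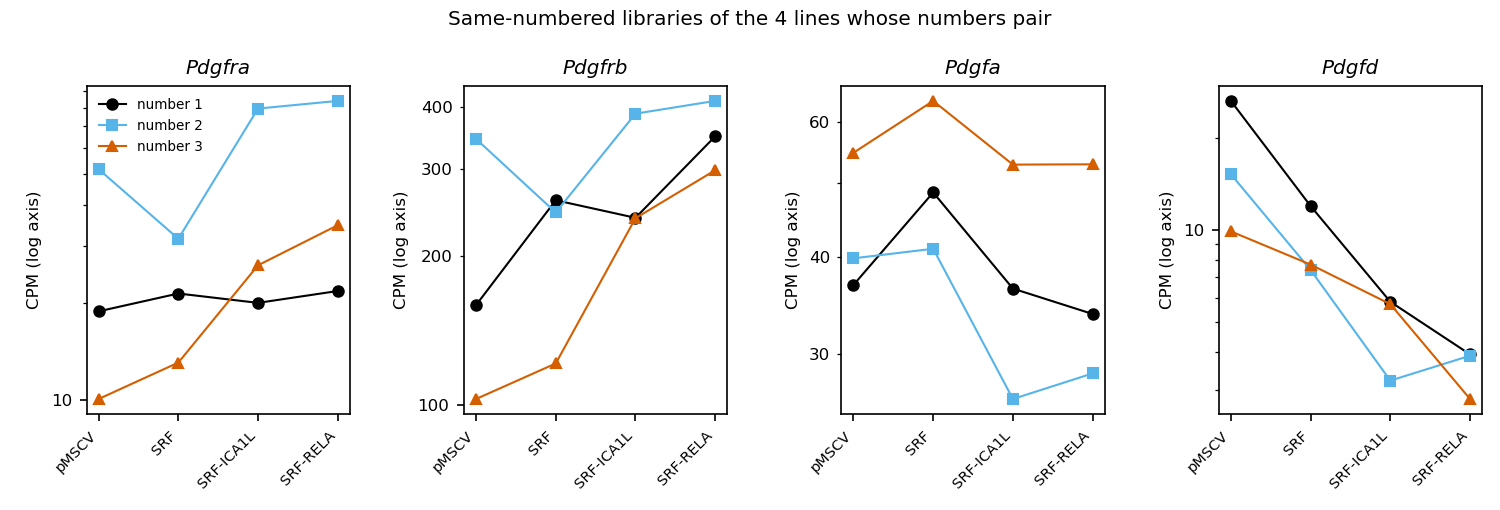
CPM (log axis) of Pdgfra, Pdgfrb, Pdgfa and Pdgfd in the lines whose numbers pair, with a line joining libraries of the same replicate number. Pdgfd descends from pMSCV to SRF-ICA1L for each number, whereas library 2 is highest for Pdgfra and library 3 for Pdgfa in each of the 4 lines.

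Against SRF, no member was called in SRF-ICA1L or SRF-RELA by edgeR's quasi-likelihood test over 17 libraries (0% and 0.00664% of genes called) or by DESeq2 (0.0133% and 0.0599%). Unadjusted p was under 0.05 for 0 members in SRF-ICA1L and 1 in SRF-RELA, where 1.56% and 3.21% of genes had such a p. That member was Pdgfrl, higher by 1.75 in SRF-RELA (SE 0.77, edgeR adjusted p = 0.975). Pdgfrb and Pdgfrl lay above all SRF libraries in SRF-RELA, as did 5.86% of genes, and Pdgfb, Pdgfc and Pdgfd below, as did 5.04%. In SRF-ICA1L only Pdgfd lay below, as did 3.2% of genes. With the block the counts stayed at 0 of 7, where 0.0956% of genes were called for SRF-ICA1L and 0.656% for SRF-RELA, although unadjusted p was under 0.05 for 4 and 7 members, against 9.08% and 17% of genes. In SRF-RELA with the block Pdgfd had the smallest adjusted p (log2 fold change -1.31, SE 0.28, adjusted p = 0.0643). The count for SRF-RELA depended on pMSCV libraries that the contrast does not use: 4 members (Pdgfrb, Pdgfa, Pdgfb and Pdgfd) were called without pMSCV library 2 and 2 (Pdgfrl and Pdgfd) without pMSCV library 3, where 2.91% and 0.994% of genes were called.

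SRF itself against pMSCV gave no called member by edgeR's quasi-likelihood test, where 0.00664% of genes passed, and 0 by DESeq2, where 0.0266% did, or with the block, where 0.0137% did. Unadjusted p was under 0.05 for 0 members, where 3.34% of genes had such a p (with the block for 2 members, against 15.1%), and no member's groups were without overlap, where 4.02% of genes were higher and 5.15% lower without overlap. Pdgfd was 2.20-, 2.05- and 1.28-fold lower in the 3 same-numbered pairs, with an adjusted p of 0.241 or more for every member in the edgeR fit with the block.

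SRF-PDGFRB, the fusion whose partner belongs to this family, also gave 0 called members against pMSCV, against SRF and against the mean of the other 3 fusions, by edgeR's quasi-likelihood test and by DESeq2. The share of all genes that edgeR called was 0.0199%, 0.0531% and 0.139%, the share that DESeq2 called was 0.475%, 0.386% and 0.306%, and no member had an unadjusted p under 0.05, where 7.7%, 5.03% and 2.97% of genes did. Its 2 libraries disagreed on the ligands. Without library 2, the one rich in myoblast markers, Pdgfd was lower than pMSCV by a log2 fold change of -4.95 and called (edgeR adjusted p = 0.0451, 0.498% of genes called), with a lone library assumed to vary like the other groups. Without library 1 the difference was -0.12, and against SRF and the other fusions 0 members were called without either library. Of the receptor genes, without library 1 and without library 2 the log2 fold change against pMSCV was -0.06 and 0.29 for Pdgfrb, 0.03 and 0.98 for Pdgfra, and 0.37 and -1.07 for Pdgfrl.

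The mean of the 4 fusion lines was also set against the mean of pMSCV and SRF. The receptor median was 1.01 and the ligand median -1.12, against 0.00 over all genes, and no member passed edgeR's quasi-likelihood test, where 0.0199% of genes passed. Unadjusted p was under 0.05 for 5 members, against 18.5% of genes, and DESeq2 called Pdgfd, against 7.03% of genes. In edgeR Pdgfd was lower (log2 fold change -1.61, SE 0.47, adjusted p = 0.106), as were Pdgfc (-0.75, SE 0.26) and Pdgfb (-1.50, SE 0.68), and Pdgfra (1.01, SE 0.42) and Pdgfrb (0.64, SE 0.26) were higher. A single library decided the count: without SRF-PDGFRB library 2, Pdgfb (-2.86, adjusted p = 0.0319), Pdgfc (-1.08, adjusted p = 0.0123) and Pdgfd (-2.58, adjusted p = 0.00286) were called, with 5.83% of genes. Without pMSCV library 2 Pdgfrb was called alone (0.95, edgeR adjusted p = 0.0494), with 3.09% of genes. The count with an unadjusted p under 0.05 was lowest, at 2, without SRF library 3, pMSCV library 3 or SRF-ICA1L library 2. In these fits 14.7%, 15.4% and 15.7% of genes had such a p. It reached 6 without SRF-ICA1L library 3 or SRF-RELA library 3, against 18.3% and 19% of genes.

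Replicate number and line accounted for different shares of the variance of log2 CPM from member to member. In the 12 libraries of pMSCV, SRF, SRF-RELA and SRF-ICA1L, the line accounted for 81.4% of the variance of Pdgfd and the number for 9.81%. For Pdgfa the shares were 23.5% and 68.8%, and for Pdgfra 21% and 65.7%. The shares of Pdgfrb were 40% and 42.1%, those of Pdgfrl 33.2% and 44.8%, those of Pdgfb 25.5% and 47.9% and those of Pdgfc 25.9% and 28.1%. The median gene had 19.5% for line and 49.6% for number. Pdgfra was highest in library 2, Pdgfa in library 3 and Pdgfd in library 1 of each of these 4 lines. What the numbers stand for is not given in the sources used here.

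Both kinase receptors varied together across the 17 libraries, a description over libraries that share groups and numbers. Pdgfra and Pdgfrb had a Pearson correlation of log2 CPM of 0.86, and 0.80 after each group's mean was removed. Among the ligands Pdgfb and Pdgfc were closest, with 0.88 and 0.92. Between a receptor and a ligand the correlation was lowest for Pdgfra and Pdgfa (-0.68) and Pdgfrb and Pdgfa (-0.67). Pdgfrl and Pdgfb were near 0 (0.05), and within groups Pdgfrb and Pdgfd were at 0.01.

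Among 10036 genes averaging at least 5 CPM, those most like each member over the 17 libraries were the following. Reck, which encodes a membrane-anchored protease inhibitor, was nearest to Pdgfra (r = 0.98), with Mtus1 and Pik3r1, a regulatory subunit of PI3 kinase, both at 0.97. Emilin2 (0.96), Nrp2 (0.95) and Colec12 (0.94) were nearest to Pdgfrb; Emilin2 is an extracellular matrix glycoprotein and Nrp2 a neuropilin co-receptor. The matrix and growth factor genes Tgfb3 and Col6a2 (both 0.97) and the pseudokinase gene Trib2 (0.96) were nearest to Pdgfrl. Zcrb1 and Drg1 (both 0.94) and Dhrs7b (0.93) were nearest to Pdgfa, Marchf11 (0.91), Piezo2 and Eif3e (both 0.90) to Pdgfb, and Abracl (0.95), Tlnrd1 (0.92) and Sfr1 (0.90) to Pdgfc. Pdgfd was most like Zim1 and Chrnd (both 0.98) and Peg3 (0.97). Zim1 and Peg3 are imprinted zinc finger genes and Chrnd encodes the delta subunit of the muscle acetylcholine receptor. Like Pdgfd, Chrnd had its highest mean in pMSCV (94.5 ± 47.2 CPM) and its lowest in SRF-FOXO1 (4.98 ± 4.94 CPM, SD, n = 3 each), as did Zim1 and Peg3. These genes were picked by their correlation with Pdgfd in the same libraries, so the shared order is no further evidence.

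Pdgfd was set beside the sum of the myoblast markers in each library. Its lowest library, SRF-PDGFRB library 1 (0.551 CPM), had the lowest marker sum (84.3 CPM), and SRF-PDGFRB library 2, with 16.0 CPM, had the highest (1651 CPM). That library 1 was also the lowest for Pdgfb and Pdgfc. The highest Pdgfd level, 26.5 CPM in pMSCV library 1, stood beside a sum of 972 CPM, so the order of the libraries was not the same for both. Within pMSCV, SRF, SRF-RELA and SRF-ICA1L the order went the other way. In each of these lines library 1 had the highest Pdgfd level and the lowest marker sum.

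**Figure D5:**
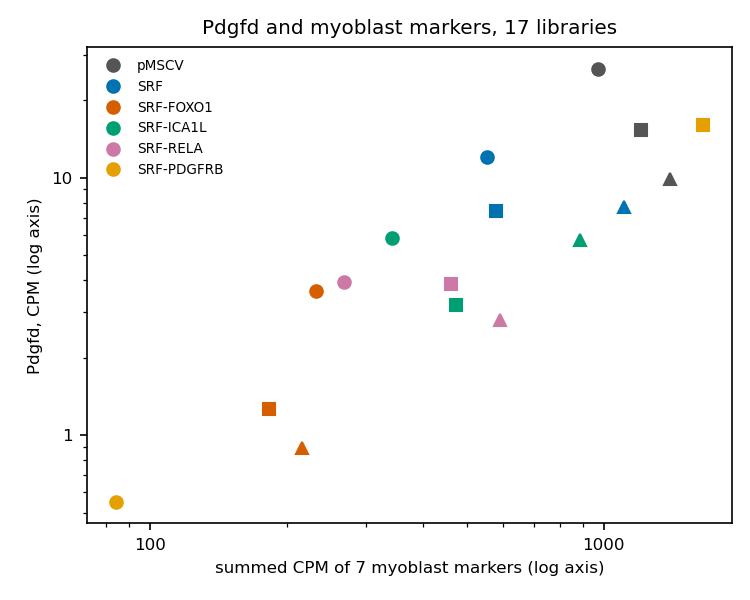
Pdgfd in CPM against the summed CPM of 7 myoblast markers (both log axes) in the 17 libraries, coloured by line; circles, squares and triangles are replicate numbers 1, 2 and 3. The SRF-PDGFRB libraries lie at opposite corners, at 84.3 and 1651 CPM of markers.

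The wider pathway was examined with lists for ligand processing and retention (9 of 12 genes measured), receptor effectors (33 of 33), receptor attenuation (13 of 14), transcripts induced by growth factors (19 of 19), and the related receptor kinases and ligands of the KIT, CSF1 and VEGF families (9 of 13). By edgeR's quasi-likelihood test over 17 libraries, 2 of these genes were called in any of the 11 comparisons, both in SRF-FOXO1 against pMSCV, where 0.71% of genes were called. Without pMSCV library 1 or 3, or SRF-FOXO1 library 1 or 3, 0 genes were called in that comparison. Fyn, an SRC family kinase recruited by activated PDGF receptors, fell from 107 ± 20.4 to 37.7 ± 11.7 CPM (log2 fold change -1.51, SE 0.32, adjusted p = 0.0483). Csf1, the ligand of the related receptor CSF1R, rose from 296 ± 98.2 to 740 ± 122.6 CPM (log2 fold change 1.32, SE 0.27, adjusted p = 0.0426; SD, n = 3 each). The list medians in that comparison lay between -0.38 for growth-factor-induced transcripts and 0.21 for ligand processing, against 0.00 over all genes.

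With the replicate block over 12 libraries, more of the pathway was called in SRF-ICA1L and SRF-RELA against pMSCV, beside the 2.99% and 6.48% of all genes called there. For these lists, rose and fell mean called higher and called lower. Of 33 receptor effectors, 0 rose and 2 fell in SRF-ICA1L (Src and Fyn), and 1 rose (Gab1) and 2 fell (Src and Fyn) in SRF-RELA. Called or not, 18 effectors were higher and 15 lower in SRF-ICA1L, and 15 were higher and 18 lower in SRF-RELA. Of 19 growth-factor-induced transcripts, Egr1 rose and Spry2 fell in SRF-ICA1L, and Junb and Egr1 rose and Spry2 fell in SRF-RELA. Spry2, a feedback inhibitor of receptor tyrosine kinase signalling, fell by log2 fold changes of 0.86 (SE 0.14, adjusted p = 0.0133) and 1.03 (SE 0.14, adjusted p = 0.00373) in the edgeR fits. Of 13 attenuators, only Grb14, an adaptor that binds active receptor kinases, was called, and it fell by 1.25 (SE 0.20, adjusted p = 0.0133) in SRF-ICA1L and by 1.24 (SE 0.20, adjusted p = 0.00787) in SRF-RELA. It was scarce, at 6.47 CPM in pMSCV and 2.65 and 2.74 CPM in the fusions, and was the 1 pathway gene that also fell against SRF in both. Of 9 related kinases and ligands, Vegfd, a ligand of VEGF receptors, rose by 1.14 (SE 0.21, adjusted p = 0.0194) in SRF-ICA1L and by 1.68 (SE 0.21, adjusted p = 0.00314) in SRF-RELA. Csf1 rose by 1.08 (SE 0.26, adjusted p = 0.0342) in SRF-RELA, and was higher by 1.11 (SE 0.26, adjusted p = 0.0516) in SRF-ICA1L by edgeR. Src fell by 0.49 (SE 0.10, adjusted p = 0.0305) in SRF-ICA1L and Fyn by 0.97 (SE 0.16, adjusted p = 0.00823) in SRF-RELA. Of 9 ligand processing genes, Nrp1, a co-receptor, rose in SRF-ICA1L and 0 were called in SRF-RELA. In SRF against pMSCV no list gene was called in the edgeR fit with the block, where 0.0137% of all genes were. Among the smallest p were those of Spry2 (log2 fold change -0.62, adjusted p = 0.143), Vegfd (0.73, adjusted p = 0.223) and Fyn (-0.46, adjusted p = 0.274).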

How the data were processed

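The authors deposited raw counts per gene, with a column for each library. Per the submitters' processing notes, FastQC 0.11.8, Trimmomatic 0.39, HISAT2 2.12.1 and featureCounts of Subread 2.0.0 were used with GRCm38. The annotation, strand setting and filters are not given in the sources used here, but every gene had at least 10 counts in 3 or more libraries. Per the labels' protocols, libraries came from a stranded Illumina kit for mRNA.

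After TMM scaling, 15062 genes in 17 libraries were fitted by group in R 4.3.3 with the robust quasi-likelihood model of edgeR 4.0.16 (limma 3.58.1). Benjamini-Hochberg adjustment ran separately in 11 comparisons, and a gene was called where its adjusted p was below 0.05. SE is the standard error of the log2 fold change. The biological coefficient of variation was 36.5%, so differences between libraries, more than depth, set the precision. The code was tested on simulated data. To see whether replicate numbers in the titles pair libraries, deviations from the group means were correlated over genes. Same-numbered libraries of pMSCV, SRF, SRF-RELA and SRF-ICA1L correlated at 0.392 to 0.789 and those of SRF and SRF-FOXO1 at 0.220 to 0.330. The lowest value for pMSCV and SRF-FOXO1 was -0.195. Values for SRF-FOXO1 with SRF-ICA1L or SRF-RELA ran from -0.013 to 0.501. Hence the report gives a fit with the number as a block for the first 2 sets, and other blocks stand only among the alternatives.

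The members and lists were chosen with earlier results of these data known. Log2 fold changes are printed for members with an unadjusted p under 0.05 or a call in a fit with the block, and for some others that are described. Pathway genes are named where called, or among the 4 smallest p against pMSCV with the block, except 1 gene that is not reported here. The 3 nearest genes were ranked by Pearson correlation of log2 CPM with a prior count of 2, without predicted genes. Other pathway genes called with the block are named without values. Coordinates come from GENCODE M21 on GRCm38. Alternatives were DESeq2 1.42.0, other scalings, filters, sets of libraries, blocks and left-out libraries.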

Additional observations from a re-analysis of the deposited data

How the results depend on the processing

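The 20 differences with an unadjusted p under 0.05 over 17 libraries, or a call in a block fit without a left-out library, were recomputed under 413 alternatives. Of these, 351 stayed on the same side of the threshold, 62 passed it where the original did not, and 0 changed direction. None of the 20 was called over 17 libraries, so no alternative could lose a call. The 20 were also picked by their p in these data, so the tally cannot show how stable a call is. Pdgfa in SRF-FOXO1 against pMSCV (log2 fold change -0.49 over 17 libraries) is among the 20 only through a block fit, which is itself among the alternatives. Some other differences printed above are not among the 20. Scaling by DESeq2 size factors or library totals and either filter changed no count of called members, which was 0 in all 11 comparisons. DESeq2 called 2 members in SRF-FOXO1 against pMSCV, 2 in SRF-FOXO1 against SRF and 1 in the 4 fusions against both controls. Fitting only the libraries of SRF and SRF-FOXO1 called 2 (Pdgfra and Pdgfc). The share of all genes called in that fit is not given here, so this count cannot be set against it. With the replicate block over all 17 libraries, 2 members were called in SRF-FOXO1 against pMSCV (Pdgfc, adjusted p = 0.0420, and Pdgfd, adjusted p = 0.0468, by edgeR), where 6.78% of genes were called, and 0 in every other comparison. The block over 15 libraries, without SRF-PDGFRB and chosen after seeing the data, called 5 members in SRF-FOXO1 against pMSCV (all but Pdgfrl and Pdgfb) and 6 against SRF (all but Pdgfrb), where 16.5% and 11.1% of genes were called. The numbers of pMSCV and SRF-FOXO1 libraries did not pair, so in the counts against pMSCV these libraries share only a number. The block over 12 libraries called 1 member in SRF-ICA1L and 1 in SRF-RELA against pMSCV, and the block over SRF and SRF-FOXO1 called 2. With the blocks over 12 libraries and over SRF and SRF-FOXO1, no other call changed. The same 12 libraries without the block called 0. Leaving out 1 library gave 0 to 1 called members in SRF-FOXO1 and in SRF-PDGFRB against pMSCV, 0 to 3 in the 4 fusions and 0 to 0 in the other 8 comparisons. Leaving out 1 library with a block was chosen after seeing the data. Over SRF and SRF-FOXO1 it gave 0 to 6 called members, where 0% to 10.3% of genes were called. Over 12 libraries it gave 0 to 2 in SRF-ICA1L (0.162% to 3.83% of genes) and 1 to 2 in SRF-RELA (1.59% to 8.26%) against pMSCV. Against SRF it gave 0 to 4 in SRF-RELA (0.0335% to 2.91% of genes). The cause of these changes was not tested. Depth limits Pdgfb in SRF-PDGFRB library 1, where a count of 2 lies under the floor of 3.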
